A study of Mus musculus with 89 samples.

Results

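The response of mouse embryonic stem cells (ESCs) to the loss of Esrrb was compared between 2 culture media, FCS/LIF and 2i/LIF, over 10 RNA-seq libraries of the 20 RNA-seq libraries and 89 samples in the series. All 10 libraries come from EKOiE ESCs, which lack functional endogenous Esrrb and are kept going by an Esrrb transgene that doxycycline (Dox) switches on. Control cells (+E+N) were kept in 1 µg/ml Dox and depleted cells (-E) were cultured for 2 days without it, and Nr5a2 was intact in both. The libraries were chosen by medium and Dox alone: 2 control and 2 depleted libraries in FCS/LIF, and 3 and 3 in 2i/LIF. The same contrast was then read in the other 10 RNA-seq libraries, from EKOiE NrKO cells, which carry in addition a disruption of the exon of Nr5a2 that encodes the DNA-binding domain at both alleles. The quantity reported is a difference of differences on the log2 scale: the response in FCS/LIF (-E minus +E+N) minus the response in 2i/LIF. A value below 0 therefore means that a transcript went lower after Esrrb loss in FCS/LIF than in 2i/LIF. The 8 pluripotency genes that the study plotted (Pou5f1, Sox2, Nanog, Klf4, Tbx3, Tfcp2l1, Zfp42 and Utf1) were kept in the fit and are not described.

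Esrrb is an orphan nuclear receptor that binds DNA as a monomer and activates self-renewal genes in ESCs. FCS/LIF is serum with leukaemia inhibitory factor, which signals through Stat3, and leaves Fgf/Erk signalling on. In 2i/LIF, serum is replaced by inhibitors of Mek and Gsk3, which block Erk signalling and mimic Wnt signalling, and cells sit closer to the naive epiblast. Gsk3 inhibition relieves repression of Esrrb and other naive genes, and ESCs are known to tolerate the loss of Esrrb in 2i better than in serum.

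Total counts ranged from 38853062 to 42980094 in FCS/LIF and from 27330885 to 32526534 in 2i/LIF, and 16147 genes were tested. The ESC markers Sall4, Lin28a, Dppa4 and Tdgf1 were detected in all libraries. Their sum went from 1159 to 1263 CPM (normalised counts scaled to a common library total) in FCS/LIF controls to 1473 to 1484 after depletion. In 2i/LIF the groups overlapped, at 639 to 815 CPM in controls and 729 to 1026 after depletion. Summed primitive endoderm markers (6 genes) went from 27.2 to 34.4 CPM in FCS/LIF controls to 52.6 to 52.8 after depletion, and from 4.35 to 8.15 CPM to 6.01 to 6.90 in 2i/LIF. Summed 2-cell-stage markers (5 genes) went from 26.0 to 42.7 CPM to 54.1 to 92.7 in FCS/LIF, and from 6.84 to 12.1 to 12.8 to 28.5 in 2i/LIF. The 7 fibroblast markers summed to 8.66 to 10.3 CPM in FCS/LIF controls and 11.2 to 11.9 after depletion, and to 11.2 to 20.0 and 20.7 to 24.6 in 2i/LIF, with Dcn, Lum or Col3a1 at or under 3 counts in some groups. The 4 neural markers went from 12.6 to 13.3 CPM to 14.04 to 14.5 in FCS/LIF and from 4.01 to 6.69 to 2.25 to 3.85 in 2i/LIF, and the 6 trophectoderm markers overlapped between groups in both media. The part of these cells in the differences below was not tested. The labels do not say whether replicates are separate cultures, so p-values measure the spread between these libraries. The labels give no culture or sequencing batch across the media, so medium and batch cannot be told apart. In bulk libraries fewer cells with a transcript and less of it per cell cannot be told apart.

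The Esrrb transcript is only a partial check of the depletion, because its count does not separate the transgene from transcripts of the disrupted gene. In FCS/LIF Esrrb stood at 271 and 353 CPM in controls and at 74.2 and 65.1 CPM in -E cells. In 2i/LIF it stood at 515, 609 and 605 CPM in controls and at 441, 434 and 380 CPM in -E cells. The groups did not overlap in either medium, but the response was -2.16 ± 0.20 (SE) on the log2 scale in FCS/LIF (edgeR, adjusted p = 2.2e-06) against -0.46 ± 0.15 in 2i/LIF, where it did not pass (edgeR, adjusted p = 0.073). The difference between media was -1.70 ± 0.24 (edgeR quasi-likelihood test with Benjamini-Hochberg adjustment, adjusted p = 0.0011). The Esrrb transcript counted in the 2i/LIF -E libraries was thus above that of the FCS/LIF controls. This count does not measure how much functional Esrrb was left. The part of this transcript in the results below was not tested.

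Esrrb loss changed 445 genes in FCS/LIF (196 rose, 249 fell) and 351 genes in 2i/LIF (106 rose, 245 fell), at an adjusted p under 0.01 and a fold above 1.5 (2.76% and 2.17% of genes tested). In FCS/LIF 1.21% of genes tested rose and 1.54% fell, and in 2i/LIF 0.656% rose and 1.52% fell. The difference between media itself passed an adjusted p under 0.01 for 171 genes, or 1.06% of those tested. Of these, 95 were higher (0.588%) and 76 lower (0.471%), and 2834 genes had an unadjusted p under 0.05. With the replicate number as a block the same test called 728 genes (394 higher, 334 lower), all 171 among them. The block fit called 1055 responses in FCS/LIF (616 rose, 439 fell), where the majority turned to genes that rose, and 755 in 2i/LIF (323 rose, 432 fell). DESeq2 called 707 responses in FCS/LIF, of which 52.3% rose. On log2(TPM + 1) with limma, 99 of the 171 were called, 239 of 280 calls were higher, as were 69.4% of 474 calls in FCS/LIF, and the median of all genes moved to 0.11. Leaving out 1 library gave 37 calls without FCS/LIF +E+N replicate 1, 88 without +E+N replicate 2, 53 without -E replicate 1, 31 without -E replicate 2, and 101 to 192 without 1 of the 2i/LIF libraries. The lowest of these were 101 without 2i/LIF +E+N replicate 3, 105 without -E replicate 3 and 110 without +E+N replicate 2. Of the 166 genes left after Esrrb and 4 of the 8 plotted genes are set aside, 24 were called in each of the 10 fits. All 166 kept their sign, which is little check because the same libraries picked these genes. Of 81 genes named below with a called difference, 57 lost the call without FCS/LIF -E replicate 2, 55 without FCS/LIF +E+N replicate 1, 45 without FCS/LIF -E replicate 1 and 40 without FCS/LIF +E+N replicate 2. Without 1 of the 2i/LIF libraries 12 to 27 of the 81 lost it, and the ranges given below for single genes are over all 10 fits.

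In the main fit, without the replicate block, most genes that responded in one medium could not be shown to respond differently in the other. The shares below were not computed with the block, where 728 differences passed in place of 171. Of 358 genes called in FCS/LIF and not in 2i/LIF, 67 (18.7%) had a called difference, and of 269 called in 2i/LIF and not in FCS/LIF, 44 (16.4%) did. The 439 genes called in FCS/LIF had a median change of 1.15 there, and of 0.34 in the same direction in 2i/LIF, where 77.7% kept the sign. The 350 genes called in 2i/LIF had a median change of 1.17 there and of 0.47 in FCS/LIF, with 77.1% of the same sign. Each set was picked by its change in 1 medium, so a larger median in that medium follows in part from the choice. Over all genes tested 57.4% had the same sign in both media. The 78 genes called in the same direction in both media made up 17.8% of the FCS/LIF genes and 22.3% of the 2i/LIF genes.

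**Figure D1:**
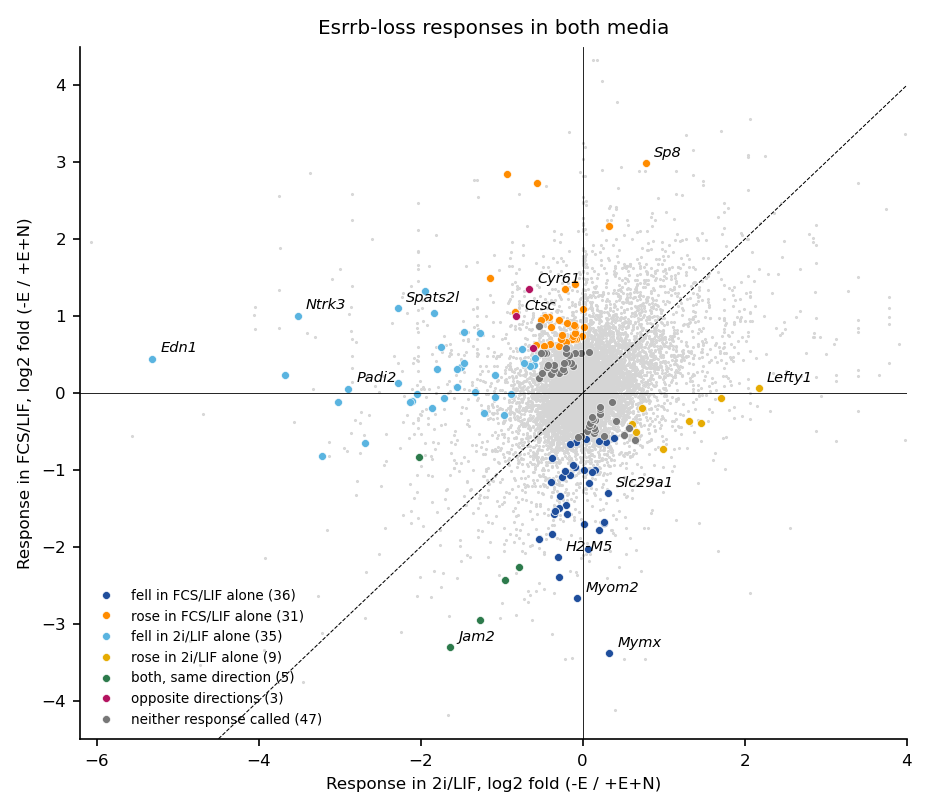
Response to Esrrb loss in 2i/LIF (x axis) against FCS/LIF (y axis), both as log2 fold of -E over +E+N, for all genes tested within the axes (grey) and for the 166 genes with a called difference between media, coloured by which response was called; the dashed line marks equal responses. The called genes lie in arms along both axes, with 36 that fell in FCS/LIF alone along the lower vertical arm and 35 that fell in 2i/LIF alone along the left horizontal arm.

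The 166 genes were sorted by which response was called. In FCS/LIF alone 36 fell and 31 rose, and in 2i/LIF alone 35 fell and 9 rose. Only 5 changed in the same direction in both media with unequal size, 3 changed in opposite directions, and 47 passed the test of the difference with neither response called. The sorting uses the tested values, so class sizes are a description. An overlap of groups below can come from spread between pairs of libraries. With the replicate block the 2i/LIF response passed for none of the 36, and for 1 of the 31, in the opposite direction. The FCS/LIF response passed for 4 of the 35, 2 in each direction (Fabp3, Gnal, Nova2 and Slco2a1), and for 1 of the 9 (Mylpf, opposite).

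Mymx, which encodes the small membrane peptide myomixer that drives myoblast fusion, had the most negative difference. It stood at 13.2 and 9.47 CPM in FCS/LIF controls and fell to 1.20 and 0.95 CPM without Esrrb. Its 2i/LIF libraries stood at 36.6, 43.2 and 53.1 CPM in controls and at 45.8, 53.6 and 67.5 CPM in -E cells. The FCS/LIF groups did not overlap and the 2i/LIF groups did, although each 2i/LIF -E library lay above the control of the same number, and the difference measured -3.72 ± 0.35 (edgeR, adjusted p = 3.7e-05). Myom2, a protein of the muscle sarcomere M-band, fell from 3.56 and 3.23 to 0.47 and 0.60 CPM in FCS/LIF and overlapped between groups in 2i/LIF. Its call was lost in 6 of 10 fits without 1 library, with estimates from -2.83 to -2.38.

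Slc29a1, which encodes the equilibrative nucleoside transporter Ent1, fell in FCS/LIF from 99.0 and 84.7 CPM to 37.3 and 37.3 CPM. The 2i/LIF values were 125, 136 and 135 CPM in controls and 136, 169 and 184 CPM after depletion. The difference was -1.61 ± 0.16 (edgeR, adjusted p = 3.7e-05), with no overlap in FCS/LIF. Slc29a1 (chr17:45585200-45599606) and Mymx (chr17:45600971-45602102) lie close together on the minus strand. Whether their falls are separate responses was not tested. Triml2 fell from 54.4 and 48.7 to 20.5 and 20.2 CPM in FCS/LIF and went from 130 to 136 CPM to 105 to 114 CPM in 2i/LIF, without overlap in either medium. Apod, a lipocalin that carries lipids, fell in FCS/LIF by 1.78 and gave 0.21 in 2i/LIF, and its difference had a call that was lost in each of the 10 fits without 1 library (-2.12 to -1.82).

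Notum, a secreted hydrolase that inactivates Wnt ligands, fell from 34.5 and 31.6 CPM to 11.1 and 9.39 CPM in FCS/LIF. In 2i/LIF, where Gsk3 is inhibited, its groups overlapped at 18.1 to 34.8 CPM in controls and 26.6 to 35.2 CPM after depletion, with each -E library above the control of its number. The neighbouring antisense gene Notumos moved alike, by -1.68 and 0.27. The libraries are stranded, but no strand setting is stated for the counting, so reads of the pair may not be told apart. Both calls were lost in part of the fits without 1 library, 5 of 10 for Notum (-2.26 to -1.77) and 7 of 10 for Notumos (-2.16 to -1.78).

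Adjacent genes on chromosome 17 fell together in FCS/LIF, a grouping that was noticed after the values were seen. H2-M6-ps (chr17:36969195-36971396), 2410137M14Rik (chr17:36977701-36981237), H2-M5 (chr17:36984061-36989537) and Zfp57 (chr17:37001163-37010635, mm10) are consecutive among the genes tested, and all 4 had a called difference. H2-M5, a nonclassical MHC class I gene, fell from 43.2 and 40.7 to 9.67 and 9.41 CPM in FCS/LIF, and went from 94.1 to 98.8 CPM to 71.9 to 87.5 CPM in 2i/LIF. Its difference was -1.83 ± 0.16 (edgeR, adjusted p = 2.8e-05).

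Zfp57, a zinc finger protein that holds methylation at imprinting control regions, fell from 230 and 237 to 81.5 and 78.8 CPM in FCS/LIF. The 2i/LIF groups went from 296, 278 and 282 to 219, 231 and 225 CPM. The -E libraries were below the controls in both media, and the difference was -1.20 ± 0.16 (edgeR, adjusted p = 0.00057). The next gene, Gabbr1, fell in FCS/LIF by 1.51 and missed the limit for the difference (-1.19, adjusted p = 0.0104). On the other side Znrd1as and Znrd1 gave differences of -0.47 and -0.43, which did not pass.

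H2-M6-ps is a pseudogene of the MHC family, so reads may be shared with its paralogs. Of the 4 genes, 2410137M14Rik lost its call without FCS/LIF +E+N replicate 1 (-2.09) and without FCS/LIF -E replicate 1 (-1.68), and the other 3 were called in all 10 fits. Chromosome 17 held 19 of the 171 called genes (11.1%) and 4.76% of the genes tested.

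The motif AAGGTCA, the extended half-site bound by Esrrb, was searched on both strands from 250 bases before to 50 after each RefSeq start (GRCm38.p6), along with AAGGCCA, the variant preferred by Nr5a2. Among 26 of the 36 genes that fell in FCS/LIF alone with a matched window, 2 (7.69%) held AAGGTCA, against 4.07% of 11498 genes tested with a window. AAGGCCA was in 2 of 26 as well, against 6.38%. These genes have more windows each (1.58 against 1.27), and per window the shares were 4.88% against 3.37% for AAGGTCA and 4.88% against 5.25% for AAGGCCA, which turns the latter order. Over all 128 matched genes with a called difference the shares were 1.56% and 3.12%. A match is a description of these letters and does not show binding. The windows of Triml2 and Slc29a1 upstream of a RefSeq start, and 30 bases around the Zfp57 match just past one, are printed with the motif in capitals. These genes were chosen because they fell in FCS/LIF alone and were called in all 10 fits. The Slc29a1 match is to AAGGCCA, and those of Triml2 and Zfp57 are to AAGGTCA. Triml2 has a further, reverse-strand match across its start, of which only the upstream bases are shown, and the Slc29a1 and Zfp57 matches are on the reverse strand. The starts shown for Slc29a1 and Zfp57 lie inside the GENCODE spans of these genes (chr17:45585200-45599606 and chr17:37001163-37010635) and are not their outermost starts.
Triml2, chr8:43180286-43180535, plus strand: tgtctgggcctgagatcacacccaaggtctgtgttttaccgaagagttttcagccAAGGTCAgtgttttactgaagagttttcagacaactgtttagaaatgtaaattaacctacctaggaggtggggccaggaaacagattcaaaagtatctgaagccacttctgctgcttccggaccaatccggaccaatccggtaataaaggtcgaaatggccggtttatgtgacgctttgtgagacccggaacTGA
Slc29a1, chr17:45592938-45593187, minus strand: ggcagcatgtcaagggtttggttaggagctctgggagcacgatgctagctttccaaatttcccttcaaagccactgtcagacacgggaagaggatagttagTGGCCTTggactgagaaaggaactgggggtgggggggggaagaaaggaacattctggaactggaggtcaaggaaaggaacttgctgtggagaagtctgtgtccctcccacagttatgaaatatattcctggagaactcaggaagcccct
Zfp57, chr17:37002521-37002550, plus strand: atctaaatttcTGACCTTggcagacagcca

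Genes of naive pluripotency outside the 8 leaned the same way. Of 35 measured genes on that list 5 were called lower in FCS/LIF than in 2i/LIF (14.3%), none was higher, and 31 of 35 estimates were below 0, with a median of -0.41 beside -0.0041 over all genes. With the replicate block 10 were called lower and none higher, and without 1 library 2 to 5 were called. On log2(TPM + 1) the median was -0.26, with 26 estimates below 0. Other lists leaned at least as far the other way in the main fit. Medians were 0.60 for Bmp genes (16 of 19 estimates above 0), 0.52 for neural genes (11 of 15) and 0.44 for formative and primed genes (18 of 26). Jam2, a cell adhesion molecule of tight junctions, fell in both media: from 124 and 134 to 13.3 and 12.9 CPM in FCS/LIF, and from 218, 237 and 261 to 88.1, 75.1 and 67.2 CPM in 2i/LIF. It did not overlap between groups in either medium, and the difference was -1.67 ± 0.21 (edgeR, adjusted p = 0.00037).

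Klf2, a Krüppel-like factor that sustains naive ESCs, fell in FCS/LIF from 136 and 122 to 67.0 and 60.1 CPM. In 2i/LIF its controls at 268 to 318 CPM overlapped the -E libraries at 263 to 345 CPM. Prdm14, a repressor of Fgf signalling and of DNA methylation, fell from 6.07 and 5.02 to 3.29 and 2.22 CPM in FCS/LIF. It stood at 49.1 to 54.4 and 48.0 to 56.5 CPM in the 2i/LIF groups, which overlapped. Fbxo15, an F-box gene used as an ESC marker, fell by 0.93 in FCS/LIF and gave -0.11 in 2i/LIF. Dppa5a and Klf5, the most abundant list members without a call, gave differences of -0.17 and -0.23. Klf2 lost its call without FCS/LIF +E+N replicate 1 (-1.04) and without FCS/LIF -E replicate 2 (-1.06), Fbxo15 likewise (-0.77 and -0.81), and Prdm14 in 8 of 10 fits (-1.34 to -0.77).

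Amino acid genes were put together after the values were seen, as 29 genes of serine, glycine, asparagine and branched-chain metabolism and targets of the stress factor Atf4. In FCS/LIF 11 of the 29 fell and none rose, in 2i/LIF none passed, and 5 had a called difference, all lower (17.2%). With the replicate block 12 were lower, and without 1 library 1 to 6 were called. In EKOiE NrKO cells the median difference of the list was -0.12, against -0.61 in EKOiE cells. There 2 members were called higher and 1 lower (Bcat1, -0.77), and Psat1, Kyat3, Shmt2 and Asns did not pass. Bcat1, the cytosolic aminotransferase of branched-chain amino acids, fell from 226 and 236 to 75.4 and 80.3 CPM in FCS/LIF. The 2i/LIF groups went from 719, 749 and 750 to 629, 652 and 651 CPM, again without overlap, and the difference was -1.37 ± 0.16 (edgeR, adjusted p = 0.00025).

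Psat1, of serine synthesis, fell from 398 and 441 to 182 and 192 CPM in FCS/LIF while its 2i/LIF groups overlapped at 459 to 563 CPM. Asns, asparagine synthetase, fell by 1.15 in FCS/LIF and gave -0.40 in 2i/LIF. Shmt2, the mitochondrial serine hydroxymethyltransferase, fell by 0.96 in FCS/LIF and gave -0.09 in 2i/LIF. Kyat3, an aminotransferase, fell by 0.99 in FCS/LIF and gave 0.16 in 2i/LIF. Leaving out 1 library ended the calls of Psat1 in 3 of 10 fits (-1.32 to -1.16), Kyat3 in 3 (-1.29 to -0.99), Shmt2 in 8 (-0.94 to -0.77) and Asns in 9 (-0.81 to -0.70). The metallothioneins Mt1 and Mt2, which bind zinc and copper, fell in FCS/LIF by 1.45 and 1.50 and gave -0.21 and -0.29 in 2i/LIF. Their differences lost the call without FCS/LIF +E+N replicate 1 (-1.06 and -1.001) and without FCS/LIF -E replicate 2 (-1.15 and -1.10).

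**Figure D2:**
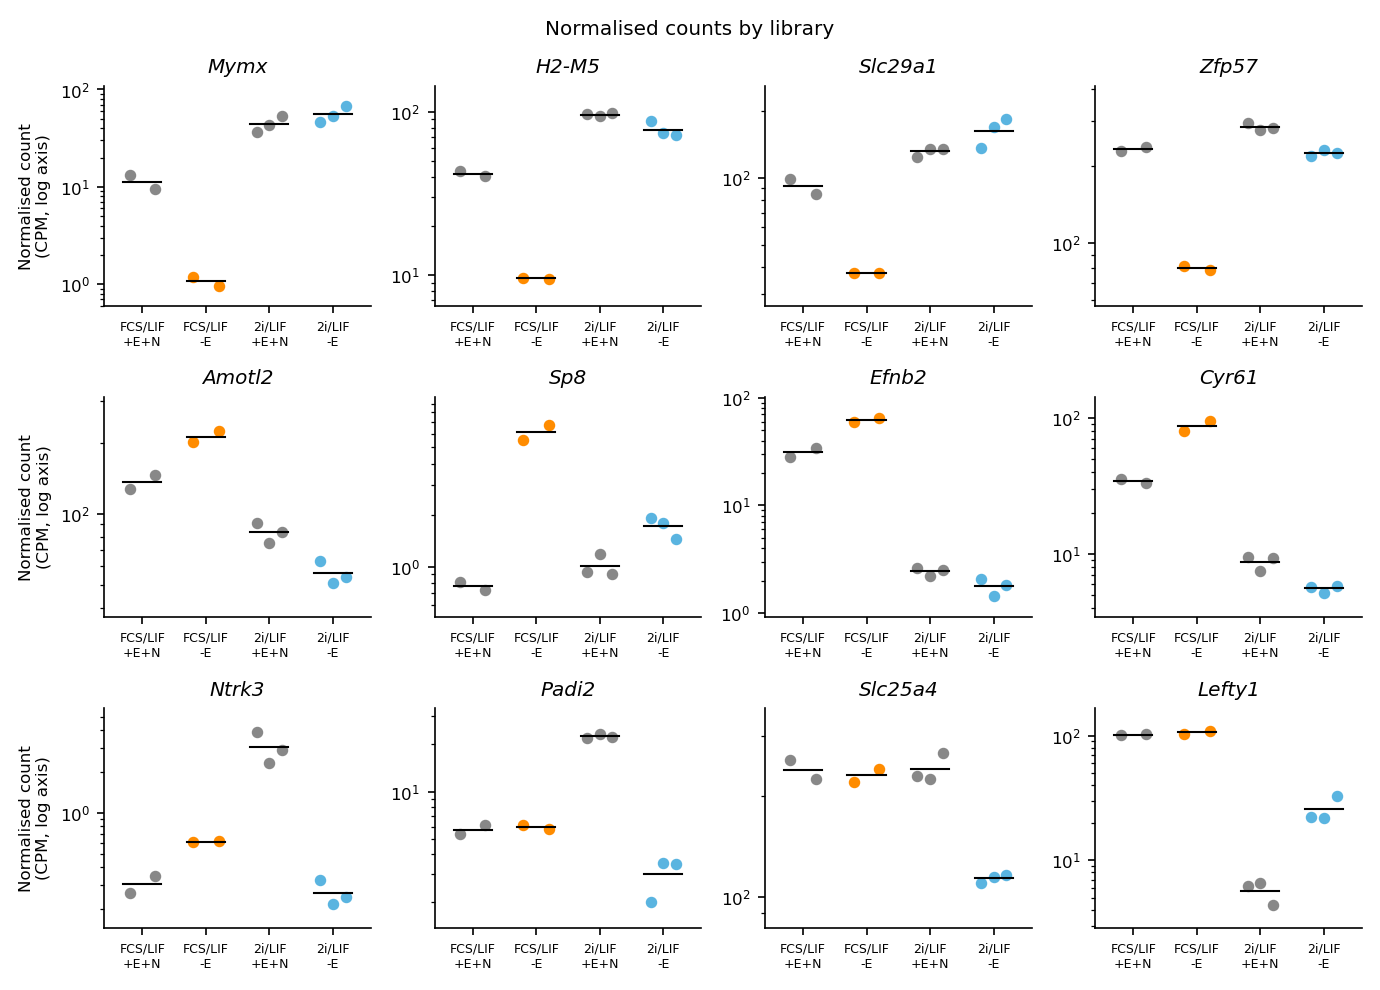
Normalised counts (CPM, log axis) of 12 genes in the 10 libraries; each point is a library, grey for +E+N and coloured for -E, and each line is the group mean. The top row fell in FCS/LIF alone, with all -E points below the controls there, the middle row rose in FCS/LIF (Cyr61 also fell in 2i/LIF), and in the bottom row Ntrk3, Padi2 and Slc25a4 fell and Lefty1 rose in 2i/LIF alone.

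Among genes that rose in FCS/LIF alone, Sp8, a zinc finger factor of limb and forebrain, had one of the most positive differences. It rose from 0.81 and 0.73 CPM to 5.51 and 6.77 CPM in FCS/LIF, and went from 0.91 to 1.19 CPM to 1.46 to 1.93 CPM in 2i/LIF. No groups overlapped, and the difference was 2.21 ± 0.29 (edgeR, adjusted p = 0.00061). Efnb2, which encodes the ligand ephrin B2, rose from 28.1 and 34.2 to 59.1 and 64.6 CPM in FCS/LIF. In 2i/LIF it stood at 2.23 to 2.63 CPM in controls and 1.44 to 2.07 CPM after depletion. Its difference was 1.45 ± 0.19 (edgeR, adjusted p = 0.00057).

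Tmem47, a junction-associated membrane protein, rose from 52.5 and 52.0 to 77.1 and 82.4 CPM in FCS/LIF, and went from 15.8 to 19.3 CPM to 11.3 to 13.4 CPM in 2i/LIF. Fst, the activin antagonist follistatin, rose from 3.01 and 3.23 to 8.10 and 8.58 CPM in FCS/LIF and overlapped at 1.94 to 3.21 CPM in 2i/LIF. The receptors Notch2 and Notch3 rose by 0.70 and 0.76 in FCS/LIF and gave -0.11 and -0.25 in 2i/LIF. Thra, the thyroid hormone receptor alpha, rose by 0.61 and gave -0.29. Gfra1, the receptor of Gdnf, went from 2.38 and 4.06 to 19.7 and 23.1 CPM in FCS/LIF. Meis2, a homeodomain factor, went from 1.12 and 0.76 to 3.97 and 4.43 CPM in FCS/LIF, and Sema3c, a secreted guidance cue, rose by 1.50 there. In 2i/LIF Gfra1 averaged 0.97 CPM in controls and 0.64 CPM after depletion, and Sema3c 0.27 and 0.12 CPM. The differences of Gfra1 and Sema3c thus rest on low counts in 2i/LIF. Tll1, a metalloprotease of the Bmp1 family, rose by 2.85 in FCS/LIF and was under 1 CPM in all 2i/LIF libraries.

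Sp8, Efnb2 and Tmem47 were called in all 10 fits without 1 library. The calls were lost for Notch2 in 2 fits (0.73 to 0.91 over the 10), Notch3 in 3 (0.85 to 1.13), Fst in 7 (1.34 to 1.67), Thra, Gfra1 and Sema3c in 8 (0.83 to 0.96, 2.86 to 3.82 and 2.29 to 3.06), Tll1 in 9 (2.90 to 4.22) and Meis2 in all 10 (1.57 to 2.14).

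Only 3 genes changed in opposite directions in the 2 media. Cyr61, a secreted matrix protein and target of Yap and Tead, rose in FCS/LIF from 35.5 and 33.5 to 80.7 and 95.0 CPM. In 2i/LIF it fell from 9.57, 7.51 and 9.30 to 5.75, 5.14 and 5.85 CPM. The groups did not overlap in either medium, and the difference was 2.01 ± 0.20 (edgeR, adjusted p = 4.5e-05). Ctsc, the lysosomal protease cathepsin C, rose from 4.00 and 3.72 to 7.77 and 7.67 CPM in FCS/LIF and fell from 52.9, 42.6 and 45.1 to 23.6, 28.6 and 27.4 CPM in 2i/LIF. Its difference was 1.82 ± 0.19 (edgeR, adjusted p = 6.9e-05). Plxnb2, a receptor for semaphorins, rose by 0.59 and fell by 0.62. All 3 were called in every fit without 1 library.

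A further 4 Hippo pathway or Tead-associated genes had a called difference besides Cyr61, in a list of 25 genes written after the values were seen. All 5 were higher (20.0%), 22 of 25 estimates were above 0, and the block fit called 6 higher and 1 lower. In the fits without 1 library 2 to 4 were called, so all 5 never passed together. Amotl2, an angiomotin that binds Yap, rose from 128 and 146 to 201 and 223 CPM in FCS/LIF. In 2i/LIF it went from 90.9, 75.3 and 83.7 to 62.9, 50.9 and 53.7 CPM, a change of -0.58 that passed the p but not the fold limit. The groups did not overlap in either medium, and the difference was 1.21 ± 0.16 (edgeR, adjusted p = 0.0005).

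Tead3, a DNA-binding partner of Yap, gave 0.95 in FCS/LIF and -0.52 in 2i/LIF. Wwtr1, which encodes Taz, gave 0.58 and -0.21, and Wwc2, a scaffold of the kinase cascade, 0.36 and -0.12. Amotl2 was called in all 10 fits without 1 library, while Tead3 and Wwtr1 lost the call in 6 (1.29 to 1.64 and 0.72 to 0.85) and Wwc2 in 9 (0.43 to 0.55). The actin-binding genes Tpm1 (tropomyosin 1) and Cald1 (caldesmon 1) rose by 0.91 and 0.86 in FCS/LIF and gave -0.19 and -0.39 in 2i/LIF. Their calls were lost in 3 and 10 of 10 fits (0.99 to 1.20 and 1.09 to 1.42).

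Among genes that fell in 2i/LIF alone, Padi2, a peptidylarginine deiminase that converts arginine to citrulline, fell from 21.8, 23.1 and 22.3 CPM to 2.00, 3.52 and 3.46 CPM in 2i/LIF. In FCS/LIF it stood at 5.36 and 6.15 CPM in controls and 6.17 and 5.82 CPM in -E cells, which overlapped. The difference was 2.96 ± 0.25 (edgeR, adjusted p = 2.5e-05). Ntrk3, the receptor of neurotrophin 3, fell from 3.89, 2.31 and 2.86 to 0.32, 0.22 and 0.24 CPM in 2i/LIF, and went from 0.26 and 0.34 to 0.61 and 0.62 CPM in FCS/LIF. Its difference was 4.53 ± 0.54 (edgeR, adjusted p = 0.00025).

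Edn1, the peptide endothelin 1, had a fitted difference of 5.76 at low counts, which depends on the prior count of the fit. It stood at 1.35, 0.67 and 1.22 CPM in 2i/LIF controls and at 0, 0.036 and 0.035 CPM in -E cells, or 95 against 2 counts in all, a ratio of 46.4 with a counting interval of 12.5 to 388 (exact, 95%). In FCS/LIF it stood at 1.05 to 1.79 CPM over the 4 libraries. Gm28729 was also at or under 3 counts in all 2i/LIF -E libraries, with 82 against 6 counts (13.3-fold, 5.87 to 37.4), and its call was lost in all 10 fits without 1 library (3.47 to 4.48).

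Rcn1, a calcium-binding protein of the endoplasmic reticulum, fell from 70.5, 74.9 and 78.3 to 33.1, 31.1 and 32.2 CPM in 2i/LIF. In FCS/LIF it went from 39.2 and 45.9 to 34.1 and 36.9 CPM, and the difference was 0.95 ± 0.12 (edgeR, adjusted p = 0.00057). Gnal, a G protein alpha subunit of olfactory signalling, fell from 7.58 to 9.37 CPM to 3.04 to 3.17 CPM in 2i/LIF while it went from 5.18 to 5.36 CPM to 8.99 to 9.29 CPM in FCS/LIF. Spats2l fell by 2.28 in 2i/LIF, Slco2a1 (a prostaglandin transporter) by 1.83 and Naalad2 by 1.95. Their FCS/LIF changes were 1.10, 1.04 and 1.33, upward and not called in the main fit. Nova2 (a neuronal splicing factor) fell by 3.21 in 2i/LIF and Ackr4 (a scavenging chemokine receptor) by 1.74. Nova2 gave -0.82 in FCS/LIF and Ackr4 0.60, also without a call. Padi2, Ntrk3, Edn1, Rcn1 and Gnal were called in all 10 fits, while the call was lost for Spats2l in 2 (3.20 to 3.64), Slco2a1 in 6 (2.59 to 3.13), Ackr4 in 7 (2.10 to 2.45), Nova2 in 8 (2.18 to 2.66) and Naalad2 in 10 (3.01 to 3.47).

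Of 28 measured genes of lipid fuel use, a list written after the values were seen, 8 fell and none rose in 2i/LIF, 1 fell in FCS/LIF, and 5 had a called difference, all higher (17.9%), or 1 to 5 without 1 library. Slc25a4, the mitochondrial ADP/ATP carrier of heart and muscle, fell from 228, 224 and 267 to 110, 115 and 116 CPM in 2i/LIF. In FCS/LIF its controls at 254 and 223 CPM overlapped the -E libraries at 219 and 239 CPM, and the difference was 1.02 ± 0.13 (edgeR, adjusted p = 0.00057). Fabp3, a fatty acid-binding protein, fell from 52.6, 38.3 and 50.6 to 4.54, 8.31 and 9.01 CPM in 2i/LIF, and went from 113 and 119 to 64.3 and 83.8 CPM in FCS/LIF.

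Fabp5, its epidermal relative, fell by 1.80 in 2i/LIF and gave 0.32 in FCS/LIF. Oxct1, which activates ketone bodies for oxidation, fell by 0.97 and gave -0.28 in FCS/LIF. Acadl, the long-chain acyl-CoA dehydrogenase, fell by 0.65 and gave 0.35. Slc25a4 was called in all 10 fits without 1 library. Fabp3 lost its call without FCS/LIF +E+N replicate 1 (2.01) and without -E replicate 2 (1.84), Oxct1 without the same libraries (0.67 and 0.63), Acadl without any of the 4 FCS/LIF libraries (0.96 to 1.05) and Fabp5 in 9 of 10 fits (1.62 to 2.37). The 75 subunits of oxidative phosphorylation gave no call in either response or in the difference with edgeR. Of these 6 had an unadjusted p under 0.05, DESeq2 called none and the block fit called 1, lower.

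Matrix and guidance genes were likewise grouped afterwards. Of 30 measured laminin, basement membrane and axon guidance genes 7 were called, all higher (23.3%), the block fit called 9, and 3 to 7 were called without 1 library. In FCS/LIF 5 of the 30 rose and 1 fell, and in 2i/LIF 1 rose and 6 fell. Of the called genes Efnb2 and Sema3c rose in FCS/LIF alone, and Plxnb2 changed in opposite directions. Lama1, a laminin alpha chain of embryonic basement membranes, fell from 39.9, 49.4 and 43.6 to 7.54, 15.9 and 13.0 CPM in 2i/LIF against 90.7 and 108 to 86.8 and 86.3 CPM in FCS/LIF. Hspg2, the proteoglycan perlecan, fell by 1.33 in 2i/LIF and gave 0.02 in FCS/LIF. Slit2, a secreted repellent of axons, fell from 5.91, 6.13 and 8.15 to 0.39, 1.11 and 0.97 CPM in 2i/LIF. The receptor tyrosine kinase gene Met and the membrane protease gene Mme fell by 1.50 and 1.56 in 2i/LIF. Dag1, the laminin receptor dystroglycan, gave 0.52 in FCS/LIF and -0.02 in 2i/LIF, under the fold limit in both.

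Without 1 library the calls were lost for Lama1 in 3 fits (1.43 to 1.91), Hspg2 in 1 (1.26, without FCS/LIF +E+N replicate 1), Slit2 in 4 (2.58 to 3.17), Met in 8 (1.70 to 1.98), Mme in 3 (1.52 to 1.78) and Dag1 in 3 (0.49 to 0.60).

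Only 9 genes rose in 2i/LIF alone, and Lefty1, a feedback inhibitor of Nodal signalling, led them. It rose from 6.23, 6.54 and 4.36 to 22.5, 21.9 and 32.8 CPM in 2i/LIF. In FCS/LIF it stood at 101 and 103 CPM in controls and 104 and 109 CPM in -E cells, so that the 2i/LIF libraries stayed below those of FCS/LIF before and after depletion. The difference was -2.11 ± 0.33 (edgeR, adjusted p = 0.0019). Lefty2, its neighbour with the same role, rose from 6.76 to 9.73 CPM to 17.3 to 22.8 CPM in 2i/LIF and went from 40.3 to 40.6 CPM to 30.5 to 32.5 CPM in FCS/LIF.

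Dnmt3a, the de novo DNA methyltransferase, rose from 36.9, 44.9 and 51.1 to 63.1, 64.2 and 76.0 CPM in 2i/LIF. In FCS/LIF it went from 205 and 210 to 157 and 157 CPM, with no overlap in either medium, and the difference was -1.01 ± 0.14 (edgeR, adjusted p = 0.001). Spn, a surface sialoglycoprotein, rose by 1.47 and Mylpf, a myosin light chain of fast muscle, by 0.64 in 2i/LIF. In FCS/LIF they gave -0.39 and -0.60. Without 1 library the calls were lost for Lefty1 in 3 fits (-2.21 to -1.90), Lefty2 in 4 (-1.81 to -1.55), Dnmt3a without FCS/LIF -E replicate 2 (-1.01), Spn in 4 (-1.98 to -1.66) and Mylpf in 2 (-1.40 to -1.05).

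Besides Jam2, 4 genes changed in the same direction in both media by unequal amounts. Ildr1, a receptor of tricellular junctions, fell from 13.3 and 12.8 to 2.93 and 2.48 CPM in FCS/LIF and from 54.0, 49.6 and 54.5 to 27.6, 30.9 and 32.9 CPM in 2i/LIF. Its difference was -1.48 ± 0.19 (edgeR, adjusted p = 0.0004). Slc29a3, a nucleoside transporter of lysosomes, fell by 2.44 and 0.96, and Slc47a1, an efflux transporter of organic cations, by 2.95 and 1.27. Dcaf12l1 fell less in FCS/LIF (0.83) than in 2i/LIF (2.02). The calls were lost without 1 library in 4 fits for Slc29a3 (-1.66 to -1.31), 9 for Slc47a1 (-1.87 to -1.45) and 9 for Dcaf12l1 (1.06 to 1.38), and in none for Ildr1 and Jam2.

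Of the 47 genes with neither response called, several are abundant genes of translation with small changes. Eef1a1, the elongation factor that brings aminoacyl-tRNA to the ribosome, went from 9723 and 9939 to 6933 and 7098 CPM in FCS/LIF. In 2i/LIF it went from 11238, 11141 and 10904 to 12058, 11932 and 12991 CPM. The groups did not overlap in either medium, and the difference was -0.64 ± 0.10 (edgeR, adjusted p = 0.0019). Of 84 cytosolic ribosomal protein genes, a group also formed after the values were seen, 82 estimates were below 0 with a median of -0.25. Rps7, Rps14 and Rps18 were called (3.57%), at -0.48, -0.48 and -0.43, and the block fit called 18, all lower. Without 1 library 0 to 8 were called, and on log2(TPM + 1) 73 estimates were below 0 with a median of -0.12.

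Pdha1, a subunit of pyruvate dehydrogenase, gave -0.41 in FCS/LIF and 0.11 in 2i/LIF, and Iqgap1, a cytoskeletal scaffold, 0.25 and -0.39. Tnnt1, the slow muscle troponin T, gave -0.61 and 0.64, and the mitochondrial ribosomal RNA mt-Rnr2 -0.46 and 0.57. Mitochondrial genes took 2.12 to 2.50% of counts in FCS/LIF and 2.82 to 3.49% in 2i/LIF. Without 1 library the calls were lost for Eef1a1 without any of the 4 FCS/LIF libraries (-0.66 to -0.62), Iqgap1 in 3 fits (0.60 to 0.68), mt-Rnr2 in 4 (-1.12 to -0.91), Pdha1, Rps7 and Tnnt1 in 6 (-0.59 to -0.46, -0.53 to -0.41 and -1.45 to -1.03), and Rps14 and Rps18 in 8 (-0.53 to -0.41 and -0.46 to -0.37).

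Among the other lists, read beside 1.06% of all genes, Nodal and activin genes had 3 of 19 called (15.8%), Lefty1 and Lefty2 lower and Fst higher, and DNA methylation genes had 2 of 16 (12.5%), Zfp57 and Dnmt3a, both lower. Without 1 library these lists held 0 to 5 and 1 to 3 calls. The lists with 1 call had shares of 3.12% to 5.88%, and 0 to 3 calls without 1 library. Formative and primed epiblast genes had 1 of 26 (Dnmt3a, lower), although 18 of 26 estimates were above 0. Mesoderm and streak genes had 1 of 26 (Sp8), primitive endoderm genes 1 of 21 (Lama1) and epithelial-mesenchymal and matrix genes 1 of 32 (Lama1 again). Wnt genes had 1 of 31 (Notum), LIF and Stat3 genes 1 of 17 (Klf2) and nuclear receptors 1 of 29 (Thra). Glycolysis genes had 1 of 27 (Pdha1, with 24 of 27 estimates below 0, or 19 on log2(TPM + 1)). No difference was called with edgeR among 21 trophectoderm, 15 neural, 22 2-cell-stage and germline, 13 fibroblast, 27 Fgf and Erk, 19 Bmp, 28 cholesterol, 24 cell cycle and 35 imprinted genes. Together with the oxidative phosphorylation subunits, these 10 lists held 272 genes, of which 52 had an unadjusted p under 0.05, DESeq2 called 8 and the block fit 13. These shares (19.12%, 2.94% and 4.78%) were near those of all genes tested (17.6%, 3.29% and 4.51%). In the lists with a call, the block fit called 7 of 19 Nodal and activin, 5 of 16 DNA methylation, 5 of 26 formative and 5 of 27 glycolysis genes. It also called 4 of 31 Wnt, 3 of 26 mesoderm, 3 of 21 primitive endoderm and 3 of 32 epithelial-mesenchymal genes. For LIF and Stat3 the block count was 2 of 17, and for nuclear receptors 1 of 29. The block share over all genes tested was 4.51%. Muscle contractile and fusion genes, a list written after the values were seen, had 6 of 26 called in both directions (2 higher, 4 lower), and 1 to 6 without 1 library.

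**Figure D3:**
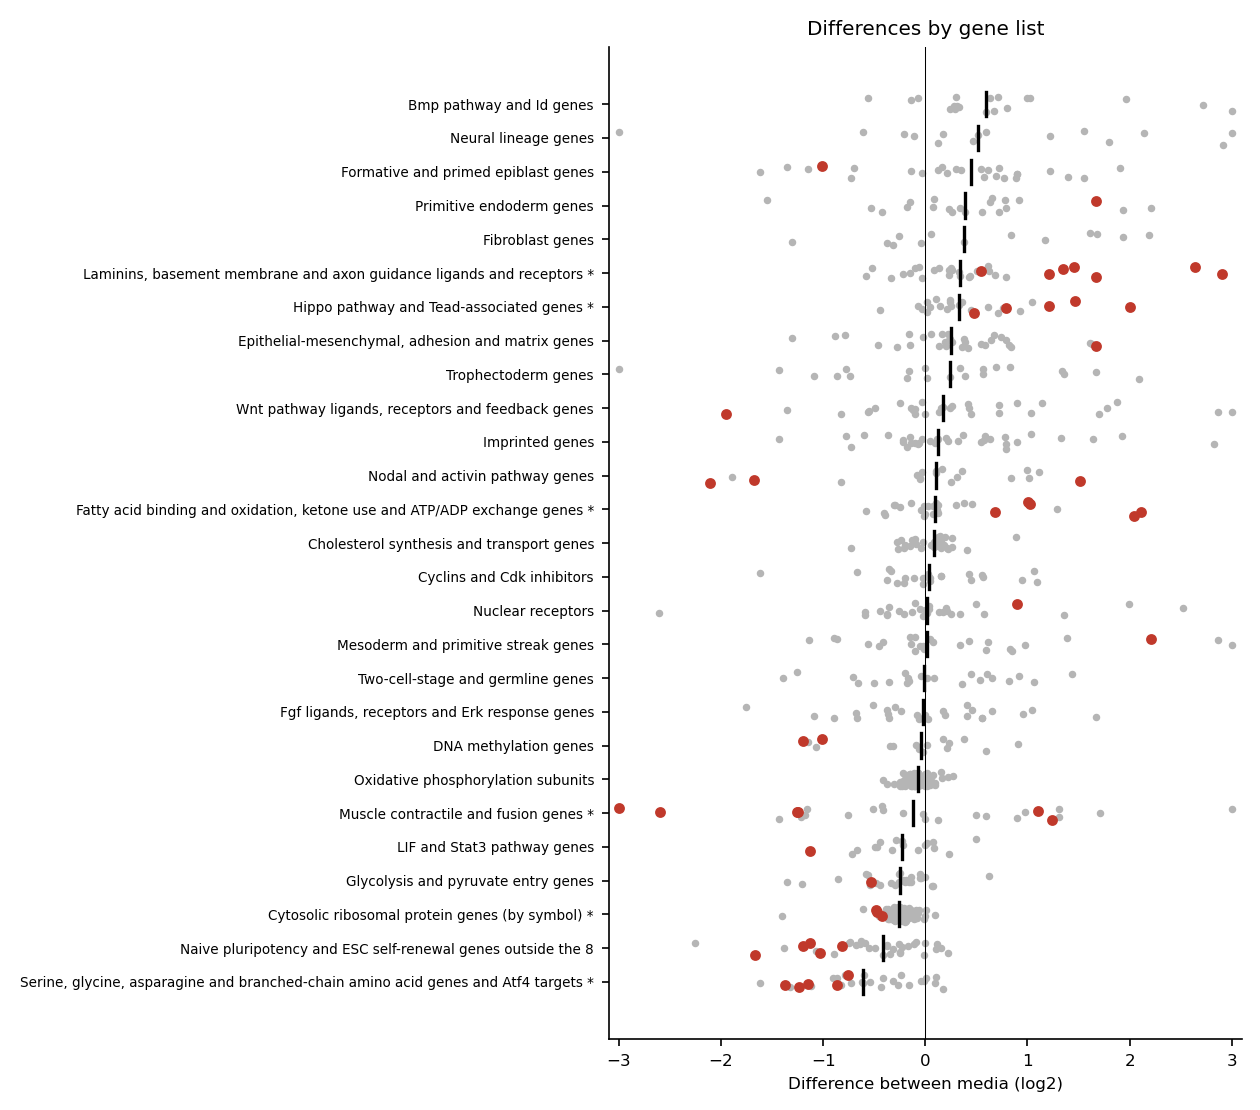
Difference between media (log2; below 0, lower after Esrrb loss in FCS/LIF than in 2i/LIF) of every tested member of each gene list; red points are called, black bars are list medians, values beyond 3 are drawn at 3, and an asterisk marks lists written after the values were seen. The naive pluripotency list has a median of -0.41 with 5 red points, all left of 0, while oxidative phosphorylation subunits lie close to 0 with none.

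The EKOiE NrKO libraries gave the same contrast in cells without functional Nr5a2. Their values do not enter the estimates in EKOiE cells, but they share the count filter and the estimate of spread behind the 166 calls. Deviations from group means also correlated between EKOiE and EKOiE NrKO libraries of the same number, over 12574 genes. The values were 0.598 with Dox and 0.260 without in FCS/LIF, and 0.256 to 0.675 and 0.164 to 0.542 in 2i/LIF. The contrasts are therefore not independent, and the part of this in the shared signs was not tested. With only the 10 EKOiE libraries 85 genes were called, 73 of the 171 among them, and 86.4% of those outside Esrrb and the 8 kept their sign in EKOiE NrKO cells. In these cells Esrrb fell from 219 and 260 to 31.3 and 28.9 CPM in FCS/LIF and from 415, 531 and 527 to 171, 161 and 104 CPM in 2i/LIF, a difference of -1.23 ± 0.25. Esrrb loss changed 920 genes there in FCS/LIF (5.7%), of which 501 (3.1%) rose and 419 (2.59%) fell, and 1350 in 2i/LIF (8.36%), of which 737 (4.56%) rose and 613 (3.8%) fell. The difference between media was called for 281 genes there (1.74%; 172 or 1.07% higher, 109 or 0.675% lower), and for 981 with the replicate block. Of the 166 genes, 152 (91.6%) had the same sign in EKOiE NrKO cells, against 67.2% of all genes tested, and 68 were called in the same direction and none in the opposite one. Over the 166 genes, Pearson's r between the contrasts was 0.835, and over all genes 0.348, as descriptions across genes that share libraries. The same sign held for 33 of 36 genes that fell in FCS/LIF alone, 33 of 35 that fell in 2i/LIF alone, 28 of 31 that rose in FCS/LIF alone, 6 of 9 that rose in 2i/LIF alone and 45 of 47 with neither response called.

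**Figure D4:**
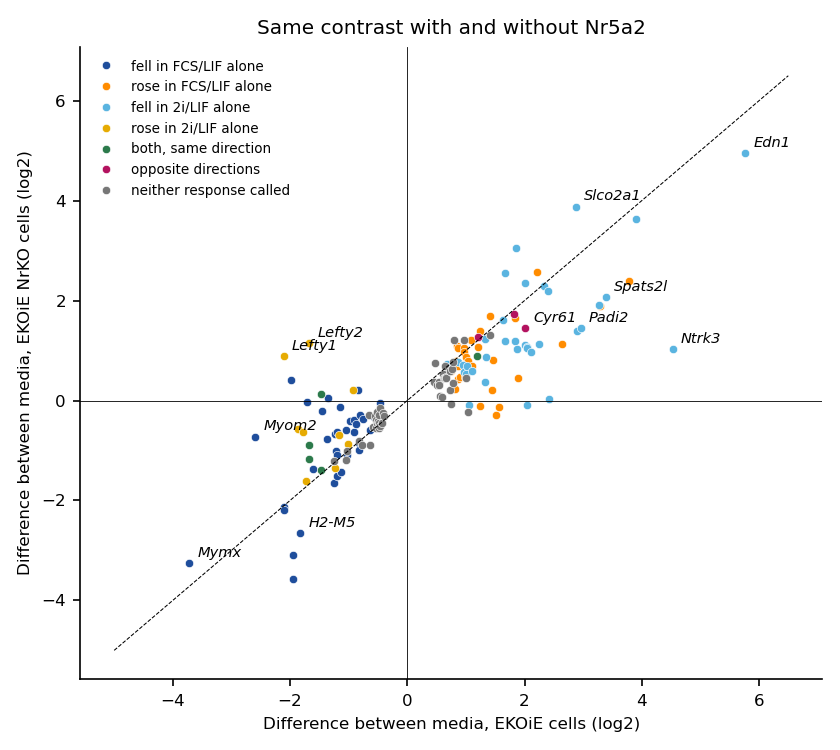
Difference between media (log2) in EKOiE cells (x axis) against EKOiE NrKO cells (y axis) for the 166 called genes, coloured as in the plot of responses; the dashed line marks equality. Points lie in the lower left and upper right quadrants for 152 of the 166 genes, and Lefty1 and Lefty2 are among the 14 exceptions.

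Mymx kept its pattern in EKOiE NrKO cells, from 6.47 and 5.11 to 0.47 and 0.77 CPM in FCS/LIF and at 41.1 to 63.8 and 49.9 to 60.8 CPM in the 2i/LIF groups, a difference of -3.25 ± 0.40 (edgeR, adjusted p = 0.00017). H2-M5 gave -2.65 ± 0.18 (edgeR, adjusted p = 5.7e-07) and Padi2 1.46 ± 0.25 (edgeR, adjusted p = 0.0023). Cyr61 rose in FCS/LIF from 54.5 and 51.3 to 160 and 176 CPM and gave 0.22 in 2i/LIF, where no fall was called, and the difference was 1.45 ± 0.19 (edgeR, adjusted p = 0.00037).

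Others did not carry over. Lefty1 stood at 61.3 to 85.8 CPM in 2i/LIF without Nr5a2 and at 37.1 to 68.0 CPM after Esrrb loss, and its difference was 0.90 ± 0.30 (edgeR, adjusted p = 0.11). Lefty2 gave 1.15 ± 0.26 (edgeR, adjusted p = 0.016), with the opposite sign. Fabp3 gave -0.10 ± 0.29, Slc29a3 0.13 ± 0.25 and Ntrk3 1.03 ± 0.51, none of which passed. Fst rose in both media in these cells, by 1.68 in FCS/LIF and 1.97 in 2i/LIF. The change of these contrasts between EKOiE and EKOiE NrKO cells was not itself tested.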

How the data were processed

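Per the labels and the study's methods, stranded poly-A paired-end reads were aligned to mm10 with STAR, and the authors deposited RSEM estimated counts, rounded to whole numbers, and TPM values per gene and library. From the deposited counts, 92 spike-in rows that were 0 were dropped, and a gene was kept when every replicate of at least 1 of the 8 groups held 20 counts or more (16147 of 54146 gene rows). edgeR 4.0.16 (TMM, quasi-likelihood test, R 4.3.3) was fitted to all 20 libraries as 8 group means. The difference between media and both responses were contrasts of that fit, adjusted by Benjamini-Hochberg over all genes. CPM are counts of a gene scaled to a common TMM library total over the genes tested. DESeq2 1.42.0 and limma 3.58.1 (log2 of TPM plus 1 or 0.1), other filters, thinned counts and leaving out each library were alternatives. The model was tested on simulated data with known changes.

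Replicate numbers are shared within a medium and the labels do not say what they mark. Deviations of same-numbered -E and +E+N libraries from their group means correlated at 0.168 in FCS/LIF and at 0.548, 0.327 and 0.515 in 2i/LIF over 12574 genes with 20 counts in all 10 libraries. All were over the limit set, so the numbers were taken to pair the libraries and block counts are given. Over all genes tested the FCS/LIF value was lower (0.0772), so that pairing is less sure there. Each pair of replicates was further apart than counting error alone would leave it, so none was merged.

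The libraries, gene lists and tests were chosen with earlier results of these data known. Genes named are the 10 most positive and 10 most negative differences with 20 counts in both media and no overlap in the medium of the larger response, the 3 of smallest adjusted p per class, up to 4 called and 2 other members per list, and 3 in each direction among low genes. Further names, 6 lists and the chromosome 17 group were chosen after the values were seen. Gene coordinates are from GENCODE M21 and promoter sequences from RefSeq (GRCm38.p6). Binding data of the series were not used here. A gene among the further names is not reported here.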

Additional observations from a re-analysis of the deposited data

Results flagged for a closer look

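A difference between the responses in FCS/LIF and 2i/LIF, tested as an interaction, passed for 171 genes with edgeR, and the values below are those of the genes named, on the log2 scale. No cause was tested, and Esrrb itself differed by -1.70.

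Among genes that fell in FCS/LIF alone, the difference was -3.72 for Mymx, -2.60 for Myom2, -2.10 for 2410137M14Rik, -2.10 for H2-M6-ps, -1.99 for Apod, -1.95 for Notum, -1.95 for Notumos, -1.83 for H2-M5, -1.61 for Slc29a1 and -1.37 for Bcat1. The next values were -1.25 for Mt1, -1.24 for Psat1, -1.21 for Mt2, -1.20 for Zfp57, -1.15 for Kyat3, -1.13 for Klf2, -1.05 for Triml2, -1.03 for Prdm14, -0.87 for Shmt2 and -0.82 for Fbxo15. The last was -0.75 for Asns. Among genes that rose in FCS/LIF alone, it was 0.81 for Notch2, 0.90 for Thra, 1.01 for Notch3, 1.09 for Tmem47, 1.10 for Tpm1, 1.21 for Amotl2, 1.24 for Cald1, 1.45 for Efnb2, 1.47 for Tead3 and 1.52 for Fst. The next values were 1.84 for Meis2, 2.21 for Sp8, 2.64 for Sema3c, 3.29 for Gfra1 and 3.78 for Tll1. Among genes that fell in 2i/LIF alone, it was 0.68 for Oxct1, 0.95 for Rcn1, 1.00 for Acadl, 1.02 for Slc25a4, 1.34 for Hspg2, 1.64 for Mme, 1.67 for Lama1, 1.84 for Met, 2.04 for Fabp3 and 2.12 for Fabp5. The next values were 2.25 for Gnal, 2.34 for Ackr4, 2.40 for Nova2, 2.88 for Slco2a1, 2.90 for Slit2, 2.96 for Padi2, 3.28 for Naalad2, 3.38 for Spats2l, 3.91 for Gm28729 and 4.53 for Ntrk3. The last was 5.76 for Edn1, which like that of Gm28729 is a fitted value from 3 counts or fewer in each 2i/LIF -E library, so its size is not well known. Among genes that rose in 2i/LIF alone, it was -2.11 for Lefty1, -1.86 for Spn, -1.67 for Lefty2, -1.24 for Mylpf and -1.01 for Dnmt3a. Where both media changed alike, it was -1.68 for Slc47a1, -1.67 for Jam2, -1.48 for Slc29a3, -1.48 for Ildr1 and 1.19 for Dcaf12l1. Where the media moved apart, it was 1.21 for Plxnb2, 1.82 for Ctsc and 2.01 for Cyr61. With neither response called, it was -1.26 for Tnnt1, -1.03 for mt-Rnr2, -0.64 for Eef1a1, -0.53 for Pdha1, -0.48 for Rps7, -0.48 for Rps14, -0.43 for Rps18, 0.48 for Wwc2, 0.54 for Dag1 and 0.65 for Iqgap1. The last was 0.79 for Wwtr1.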

How the results depend on the processing

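All 171 calls were also made by DESeq2 (532 genes) and in the replicate block fit (728), which ended none of them. The direction of the 81 named genes with a call was kept in every alternative run. These runs use the counts from which the genes were picked, so a kept direction is little check. Without a filter on low counts 706 differences were called, with limma on log2(TPM + 1) 280, at an adjusted p under 0.05 561, and with only the 10 EKOiE libraries 85, or 526 with the block added (chosen after seeing the data). The fit of 10 libraries kept 73 of the 171 and limma on log2(TPM + 1) kept 99, and 32 and 26 named genes lost their call there. Leaving out 1 library gave 31 to 192 calls, and a group left with 1 library is then assumed to vary like the others. The FCS/LIF response counted 707 genes with DESeq2, 1040 without the filter, 1055 with the replicate block, 903 with the block and 10 libraries, 901 fitted on the 4 states of that medium alone, 909 at an adjusted p under 0.05 and 143 to 524 without 1 library. The 2i/LIF response counted 571, 870, 755, 700, 223 and 705 in the same order, 575 without the fold limit and 205 to 330 without 1 library. In EKOiE NrKO cells the difference counted 706 with DESeq2, 926 without the filter, 981 with the replicate block, 123 with those 10 libraries alone, 467 with limma on log2(TPM + 1), 774 at an adjusted p under 0.05 and 88 to 295 without 1 library. With AGGTCA in place of AAGGTCA the promoter shares were 15.0% over all genes and 26.9% (7 of 26) of genes that fell in FCS/LIF alone. The latter have more windows each (1.58 against 1.27), and no share per window was computed for AGGTCA. The cause of these shifts was not tested. With 2 libraries a group in FCS/LIF, a gene changed by 2-fold in simulated counts was called in 61 of 100 cases and by 4-fold in 90 of 100. A missing call therefore does not show equal responses. Only genes with a mean of 100 counts or more were changed, in the FCS/LIF -E group of EKOiE cells. Genes with lower counts were not tried.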
